A study of Mus musculus with 15 samples.

Results

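UDP-glucuronosyltransferases (UGTs) of the liver were followed across sex and *Esr1* genotype in 15 mice. The 10 genes were taken by symbol from a table of 55573 genes: *Ugt1a1*, *Ugt1a6b*, *Ugt1a9*, *Ugt2a3*, *Ugt2b1*, *Ugt2b5*, *Ugt2b34*, *Ugt2b36*, *Ugt2b37* and *Ugt2b38*. All 10 were among the 17655 genes that passed the filter on low counts and were tested. The mice belonged to the strain B6N(Cg)-Esr1tm4.2Ksk/J, and homozygous *Esr1* knockouts (ESR1KO) were compared with wild-type (WT) littermates at 8 weeks of age. The groups held 3 WT females (FWT), 3 WT males (MWT), 5 ESR1KO females (FKO) and 4 ESR1KO males (MKO), with 1 RNA-seq library per mouse. The knockout removes an exon of *Esr1*, the gene of estrogen receptor alpha, in every tissue from the germline on, and the paper describes raised testosterone in both sexes of such mice. Loss of the receptor in liver and the altered hormones of the whole animal can therefore not be told apart in these data, and in whole liver fewer cells of a type cannot be told from less RNA per cell.

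UGTs are membrane enzymes of the endoplasmic reticulum that attach glucuronic acid, taken from UDP-glucuronic acid, to small lipophilic molecules, so that the products can leave in bile or urine. The *Ugt1a* genes are alternative first exons joined to common downstream exons, and their enzymes act on bilirubin, phenols and many drugs, while the *Ugt2b* genes are separate copies in a tandem cluster whose enzymes act on steroid hormones, bile acids and drugs. The liver, mainly the hepatocyte, is a chief site of their expression.

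Each library held between 27799061 and 78624766 counts, and levels are given as counts per 1000000 counts of the library (CPM) after trimmed mean of M values (TMM) scaling. *Esr1* itself stood between 74.7 and 88.2 CPM in FWT mice and between 25.04 and 52.0 CPM in MWT mice. It stood between 9.67 and 19.7 CPM in FKO mice and between 8.22 and 16.1 CPM in MKO mice, so that every ESR1KO mouse lay below every WT mouse. FKO 1 stood farthest from the rest of its group, with a root mean square difference of 0.496 in log2 CPM over all tested genes, against 0.315 to 0.409 for the other 14 mice. MKO 2, at 0.401, did not stand apart by this measure, but it lay far above the other MKO mice for *Ugt2b37* and *Ugt2b38*. Results that rest on these mice are also given without both, a choice made after seeing the values. The 5 hepatocyte markers summed to between 99884 and 107466 CPM in FWT, 74025 and 76006 in MWT, 81415 and 105397 in FKO and 86143 and 94959.5 in MKO mice, and *Alb* made up most of each sum. The 5 markers of pericentral hepatocytes, of which edgeR called 1 between FKO and FWT mice, summed to between 9007 and 11030 CPM in FWT mice. In FKO mice they summed to between 6119.8 CPM, in FKO 1, and 9683 CPM, a range that overlaps that of FWT mice. The 5 periportal markers, of which edgeR called 0 between FKO and FWT mice, summed to between 4115 and 5808 CPM in FWT and between 3048 and 4079 CPM in FKO mice. *Alas2*, a red blood cell marker, stood between 13.7 and 36.6 CPM in FWT, 155 and 192 in MWT, 117 and 156 in FKO and 156 and 167 in MKO mice. The 3 markers of that list, 1 of which was called by edgeR in each of the comparisons FWT with MWT and FKO with FWT, summed to between 64.9 and 451 CPM in FWT and between 310.05 and 418 CPM in FKO mice. The part of these shifts in the UGT results was not tested. Of other organs that express UGTs, the 4 kidney markers summed to at most 0.0741 CPM in any mouse, with *Kap* at 0 throughout, and the intestinal markers *Vil1* and *Lct* reached at most 0.443 and 0.0933 CPM. The other 2 intestinal markers, *Fabp2* and *Apoa4*, which hepatocytes also make, reached 104 and 428 CPM.

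The 3 *Ugt1a* genes lie on the plus strand of chromosome 1 of GRCm38, with *Ugt1a9* at chr1:88070800-88218997, *Ugt1a6b* at chr1:88103252-88219003 and *Ugt1a1* at chr1:88211959-88218997. They end on the same exons, and 58.95% of the exonic bases of *Ugt1a1*, 59.9% of *Ugt1a9* and 60.6% of *Ugt1a6b* belong to another gene of the family as well. The counting options for reads in more than 1 gene are not given in the sources used here, so the division of reads among the *Ugt1a* genes is uncertain. The first exon of *Ugt1a1* is in part overlapped on the opposite strand by *Gm20528*, which covers 57.8% of the exonic bases that *Ugt1a1* has to itself. If strand was not used in counting, reads from there could be missing from both genes, so the level of *Ugt1a1* is uncertain in this respect too.

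The other 7 genes lie on the minus strand of chromosome 5, in the order *Ugt2b34*, *Ugt2b1*, *Ugt2b36*, *Ugt2b5*, *Ugt2b37*, *Ugt2a3* and *Ugt2b38*. *Ugt2b5* spans chr5:87124960-87140318, *Ugt2b37* spans chr5:87240493-87254804 and *Ugt2b38* spans chr5:87409942-87424203. *Ugt2b1* spans chr5:86916638-86926530. The transcripts of *Ugt2b5* and *Ugt2b38* were 95.5% identical, those of *Ugt2b37* and *Ugt2b38* 93.2% and those of *Ugt2b5* and *Ugt2b37* 93.1%. Of all 100-base windows of these transcripts, 24.7% in *Ugt2b5*, 24.2% in *Ugt2b38* and 1.06% in *Ugt2b37* were also present in the transcript of another gene, against none in *Ugt2b1* and *Ugt2b36*. Among these 7 genes, reads of *Ugt2b5* and *Ugt2b38* are the ones most open to such ambiguity. The *Ugt1a* genes are more open to it, with 77.4% of such windows in *Ugt1a1*, 70.9% in *Ugt1a6b* and 58.5% in *Ugt1a9* also present elsewhere.

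*Ugt2b37* and *Ugt2b38* went opposite ways between WT sexes and between FKO and FWT mice, the comparisons that hold the FWT mice. Between MKO and MWT mice both had a negative log2 difference, -0.50 and -1.38, and neither was called with all mice. Their promoters are near copies, so both are shown together with that of *Ugt2b5*, the nearest abundant relative. Each sequence runs 5′ to 3′ on the minus strand from 250 bases before to 50 bases after the start in RefSeq (GRCm38.p6), at chr5:87254739-87255038 for *Ugt2b37*, chr5:87424154-87424453 for *Ugt2b38* and chr5:87140291-87140590 for *Ugt2b5*. Capitals mark aligned bases that differ, between *Ugt2b37* and *Ugt2b38* in their pair of sequences and from *Ugt2b38* in the sequence of *Ugt2b5*.
Ugt2b37: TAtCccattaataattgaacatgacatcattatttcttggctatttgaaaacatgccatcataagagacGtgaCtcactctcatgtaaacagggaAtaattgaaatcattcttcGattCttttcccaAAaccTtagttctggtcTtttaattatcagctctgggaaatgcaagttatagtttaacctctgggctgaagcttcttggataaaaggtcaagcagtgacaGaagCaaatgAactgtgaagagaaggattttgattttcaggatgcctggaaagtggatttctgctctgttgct
Ugt2b38: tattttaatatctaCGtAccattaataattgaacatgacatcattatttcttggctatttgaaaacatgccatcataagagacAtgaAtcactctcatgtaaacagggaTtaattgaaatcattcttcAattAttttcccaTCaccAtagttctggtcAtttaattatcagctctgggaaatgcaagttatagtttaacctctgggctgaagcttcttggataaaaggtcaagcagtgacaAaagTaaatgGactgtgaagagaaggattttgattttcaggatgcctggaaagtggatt
Ugt2b5: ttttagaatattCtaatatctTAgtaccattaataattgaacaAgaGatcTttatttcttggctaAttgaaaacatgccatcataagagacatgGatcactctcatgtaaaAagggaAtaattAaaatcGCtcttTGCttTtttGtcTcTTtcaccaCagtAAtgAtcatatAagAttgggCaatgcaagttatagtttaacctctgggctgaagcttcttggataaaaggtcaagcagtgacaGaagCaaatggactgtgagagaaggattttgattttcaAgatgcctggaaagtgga
The promoters of *Ugt2b37* and *Ugt2b38* were identical at 271 of 286 aligned positions (94.8%), with 15 bases that differed, although the annotated starts are set differently along the shared sequence. *Ugt2b5* and *Ugt2b38* were identical at 87.0% of aligned positions, with 31 substituted bases.

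Promoter entries were found for 9 of the 10 genes, the exception being *Ugt1a6b*, and 4 short motifs were searched on both strands. AGGTCA, the half-site of many nuclear receptors, occurred in 5 of 9 promoters (*Ugt1a9*, *Ugt2b5*, *Ugt2b36*, *Ugt2b37* and *Ugt2b38*), against 16.3% of 32851 promoters of the same length. In the 3 sequences above it stands in the common stretch that reads aaaaggtcaag, without a capital, and so did not distinguish *Ugt2b37* from *Ugt2b38*. The promoter of *Ugt2b36* holds the same stretch. Matches in such copies are not separate occurrences, so 5 of 9 cannot be set against 16.3% as if they were. GTTAAT, a half-site of the hepatic factor HNF1, occurred in 3 of 9 (*Ugt1a1*, *Ugt1a9* and *Ugt2a3*), against 7.1% of all promoters. TTCNNNGAA, the motif of STAT5, and GCGTG, the core bound by the aryl hydrocarbon receptor, occurred in 0 of 9, against 8.3% and 32.4% of all promoters. A match or its absence describes only the letters of these windows.

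Levels of the 10 genes were compared per kb of exon, with the bases unique to each gene used for the *Ugt1a* genes. *Ugt2b5* had the highest mean in MWT (553 CPM per kb), FKO (590.2 CPM per kb) and MKO mice (448 CPM per kb). In FWT mice *Ugt1a1* came first at 495 CPM per kb, followed by *Ugt2b5* at 324 CPM per kb, but over all exons *Ugt1a1* came behind *Ugt2b5* and *Ugt2b36*. The order of *Ugt1a1* therefore depends on how the common exons were counted.

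*Ugt2b37* and *Ugt2b38* were the scarcest in every group on the scale of unique exons. *Ugt2b37* averaged 11.7 CPM per kb in FWT mice and between 1.91 and 2.65 CPM per kb in the other groups. *Ugt2b38* averaged 1.41 CPM per kb in FWT, 21.1 in MWT, 9.67 in FKO and 8.13 in MKO mice. The pair exchanged places between FWT mice and the other 3 groups, while *Ugt1a6b* and *Ugt1a9*, between 43.5 and 77.9 CPM per kb, held the ranks just above them.

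**Figure D1:**
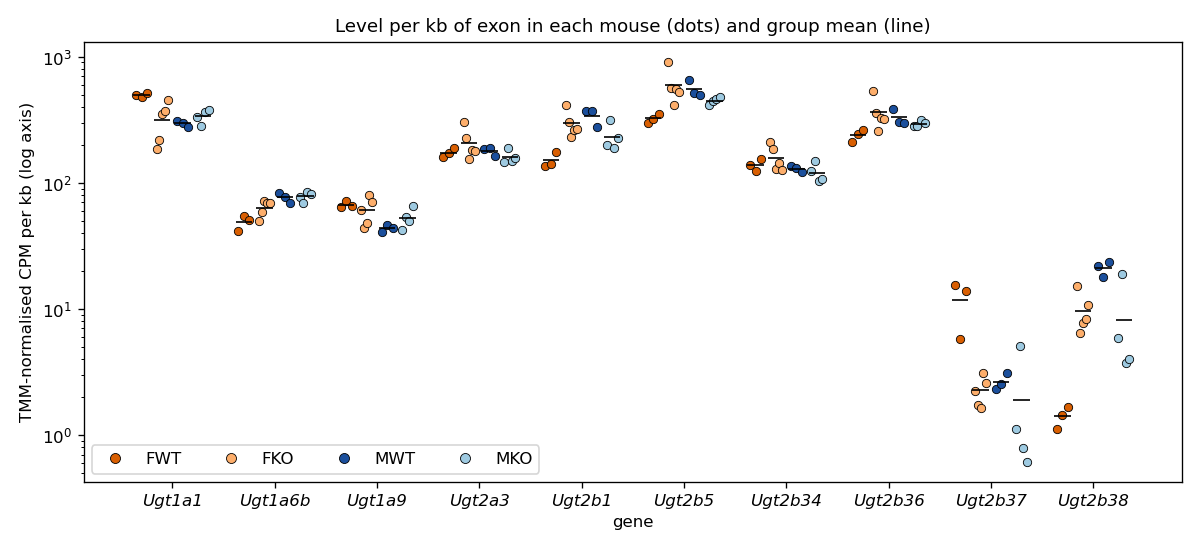
Level of each of the 10 genes per kb of exon in each mouse (dots, log axis of TMM-normalised CPM per kb) and the group mean (line), by group. *Ugt2b37* and *Ugt2b38* lie below the other 8 genes in all 15 mice, and they exchange order between FWT mice and the other groups.

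Sex differences in WT livers concerned both subfamilies. Of the 10 genes, 5 were called at an adjusted p under 0.05 (edgeR quasi-likelihood test, Benjamini-Hochberg over all tested genes), against 4.87% of all genes tested. *Ugt2b37* was higher in females, and *Ugt2b38*, *Ugt2b1*, *Ugt2b5* and *Ugt1a6b* were lower, where 2.67% of all genes were called higher and 2.20% lower. The median of log2(FWT/MWT) was -0.26 over the 10 genes and 0.01 over all genes tested. With a minimum log2 fold change of 1.5 added, *Ugt2b37* and *Ugt2b38* remained, against 1.81% of all genes.

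*Ugt1a6b*, whose enzyme conjugates small phenols, stood at 39.01, 51.0 and 47.7 CPM in the FWT mice and at 77.5, 72.8 and 65.3 CPM in the MWT mice. Every female was below every male. The difference was -0.65 in log2 (SE 0.14, edgeR adjusted p = 0.0112), or 1.57-fold lower in females, and it was not called without FWT 1 (adjusted p = 0.0683) or without MWT 1. Over all alternatives its adjusted p lay between 0.000499 and 0.0683. Of the 100-base windows of *Ugt1a6b*, 70.7% were also present in *Ugt1a6a*. That gene had the opposite sign without a call, at a mean of 49.0 CPM in FWT and 35.9 CPM in MWT mice. Its log2 difference was 0.45 (SE 0.16, edgeR adjusted p = 0.137). How reads were divided between *Ugt1a6b* and *Ugt1a6a* was not tested.

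*Ugt2b1* stood at 349, 365 and 448 CPM in the FWT mice and at 952, 951 and 714 CPM in the MWT mice. The groups were well apart, with the highest female below the lowest male. The log2 difference was -1.17 (SE 0.22, edgeR adjusted p = 0.00393), 2.25-fold lower in females. It stayed called whichever mouse was left out.

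*Ugt2b5* stood at 554, 598 and 651 CPM in the FWT mice and at 1213, 955 and 914 CPM in the MWT mice. Females again lay below all males, but the difference of -0.77 in log2 (SE 0.21, edgeR adjusted p = 0.0445) was close to the threshold. It was not called when any of 11 of the 15 mice was left out, and over all alternatives its adjusted p lay between 0.00225, without FKO 1, and 0.202, without MWT 1.

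*Ugt2b38* stood at 2.12, 2.72 and 3.16 CPM in the FWT mice, from 123, 118 and 138 counts, and at 41.0, 34.0 and 44.5 CPM in the MWT mice. The log2 difference of -3.91 (SE 0.53, edgeR adjusted p = 0.000158) was the widest of the 10 genes and made it 15.01-fold lower in females, and it stayed called whichever mouse was left out. *Ugt2b37* ran the other way, at 29.3, 10.95 and 26.1 CPM in the FWT mice and at 4.40, 4.82 and 5.85 CPM in the MWT mice. FWT 2 was far below the other females yet above all males. The log2 difference was 2.14 (SE 0.58, edgeR adjusted p = 0.0437), 4.39-fold higher in females, and it was not called when any of 9 of the 15 mice was left out. Over all alternatives its adjusted p lay between 0.000562, without MKO 2, and 0.165, without MWT 1.

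The count of 5 was 2 without FWT 1 or without MWT 1, and 3 without FWT 3, MWT 2 or MWT 3. Of all genes tested, 604, 541, 548, 617 and 788 were called in these fits in turn, against 860 with all mice. The count of UGTs was 6 without both FKO 1 and MKO 2, which enter this comparison only through the common estimate of the spread. Then 1128 of all genes were called. DESeq2 called 7 UGTs and 1225 of all genes, and edgeR on the groups compared alone called 7 and 1261.

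**Figure D2:**
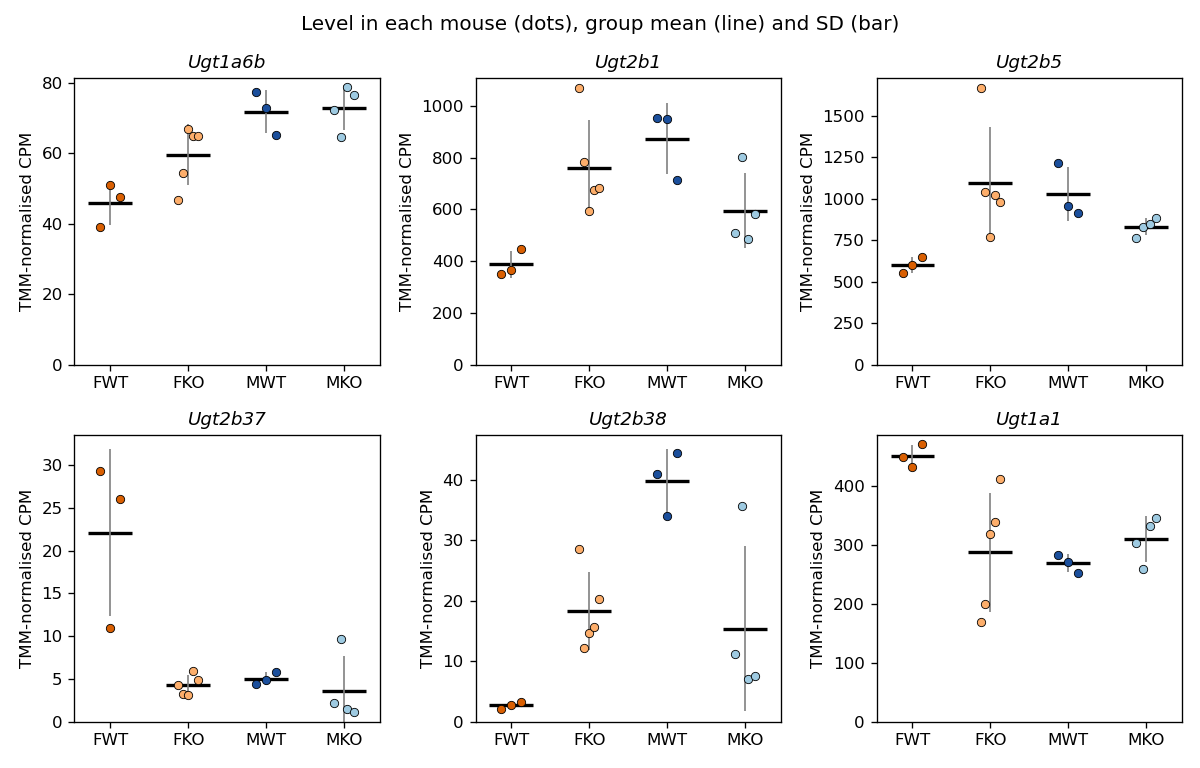
TMM-normalised CPM of the 5 genes called by edgeR over all mice in at least 1 comparison, and of *Ugt1a1*, in each mouse (dots) by group, with the mean (line) and SD (bar, drawn from 0 where it would reach below). *Ugt2b37* is highest in the FWT mice and *Ugt2b38* lowest in them, and MKO 2 stands above the other MKO mice for *Ugt2b37*, *Ugt2b38* and *Ugt2b1*.

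In females, loss of *Esr1* went with higher levels of *Ugt2b38*, *Ugt2b1* and *Ugt2b5* and a lower level of *Ugt2b37*. Of the 10 genes, these 4 were called between FKO and FWT mice, against 5.71% of all genes tested. The 3 that rose stand against 3.14% of all genes called higher, and the 1 that fell against 2.57% called lower. The median log2 fold change was 0.32 over the 10 genes and -0.00 over all genes. The FWT mice are the same ones as in the comparison of the sexes, so the direction in these 2 comparisons is not independent. With a minimum log2 fold change of 1.5, *Ugt2b38* and *Ugt2b37* remained, against 1.20% of all genes.

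*Ugt2b38* stood at 28.6, 12.2, 14.7, 15.6 and 20.3 CPM in FKO 1 to FKO 5, all of them above the 3 FWT mice. It rose by 2.79 in log2 (SE 0.49, edgeR adjusted p = 0.00287), 6.90-fold. *Ugt2b37* stood at 4.23, 3.28, 3.10, 5.93 and 4.92 CPM in the FKO mice, all below the lowest FWT mouse. It fell by 2.36 in log2 (SE 0.50, edgeR adjusted p = 0.00995), 5.12-fold, to levels that overlapped those of the MWT mice.

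*Ugt2b1* stood at 1069, 784, 594, 673 and 683 CPM in the FKO mice, again all above the FWT mice. It rose by 0.97 in log2 (SE 0.20, edgeR adjusted p = 0.00981), 1.96-fold. *Ugt2b5* stood at 1671, 1039, 772, 1023 and 979 CPM in the FKO mice, with FKO 1 far above the others and the lowest still above every FWT mouse. It rose by 0.87 in log2 (SE 0.19, edgeR adjusted p = 0.0157), 1.82-fold.

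The 2 *Ugt1a* genes nearest the threshold in females were not called by edgeR, and DESeq2 called *Ugt1a1* (adjusted p = 0.0394). *Ugt1a1*, whose enzyme is the one that conjugates bilirubin, stood at 450.3, 433 and 472 CPM in the FWT mice and at 169, 199.7, 319, 339 and 413 CPM in the FKO mice. Every FKO mouse was below every FWT mouse, with FKO 1 and FKO 2 lowest, and the log2 difference was -0.65 (SE 0.21, edgeR adjusted p = 0.0860). *Ugt1a6b* stood at 46.7, 54.6, 66.9, 65.0 and 64.9 CPM in the FKO mice, of which 4 of 5 were above all FWT mice, and the log2 difference was 0.38 (SE 0.13, edgeR adjusted p = 0.0916). Over all alternatives the adjusted p lay between 0.0100 and 0.238 for *Ugt1a1* and, lowest without FKO 1 and MKO 2, between 0.0246 and 0.321 for *Ugt1a6b*.

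The count of 4 was 1 without FWT 1 and 2 without FWT 2. *Ugt2b38* was the gene that stayed called whichever mouse was left out, while *Ugt2b1* and *Ugt2b5* were not called without FWT 1 (adjusted p = 0.0619 and 0.0796) or FWT 2, nor *Ugt2b37* without FWT 1 (adjusted p = 0.0569). These were the highest adjusted p over all alternatives, and the lowest were 6.41e-05 for *Ugt2b1*, 0.000240 for *Ugt2b5* and 3.44e-05 for *Ugt2b37*. The count was 5 without both FKO 1 and MKO 2. DESeq2 called 6. For WT sex these settings called 1128 and 1225 of all genes, against 860 in the main fit. The calls over all genes for genotype in females are not given here for the alternatives. Their counts of UGTs can therefore not be read as particular to the UGTs.

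In males, loss of *Esr1* gave no call among the 10 genes (0 with edgeR and 0 with DESeq2), against 1.42% of all genes. At an unadjusted p under 0.05 there were 2, against 11.9% of all genes. The median log2 fold change was -0.17 over the 10 genes. *Ugt2b38* stood at 11.1, 35.7, 7.07 and 7.57 CPM in MKO 1 to MKO 4. MKO 2 fell among the MWT mice and the other 3 well below them, and the log2 difference was -1.38 (SE 0.43, edgeR adjusted p = 0.150). *Ugt2b37* stood at 2.13, 9.68, 1.498 and 1.16 CPM, where MKO 2 was above all MWT mice and the other 3 below them, from counts of 59, 415, 86 and 87.

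Without MKO 2, 2 genes were called in males. *Ugt2b38* then differed by -2.23 in log2 (edgeR adjusted p = 0.000592) and *Ugt2b37* by -1.71 (edgeR adjusted p = 0.0197). Without both FKO 1 and MKO 2, *Ugt2b1* was called as well, at -0.73 (edgeR adjusted p = 0.0164), for a count of 3. Over all alternatives the adjusted p in males lay between 5.83e-05 and 0.398 for *Ugt2b38*, 0.0197 and 0.955 for *Ugt2b37* and 0.0164 and 0.524 for *Ugt2b1*. The fit without both mice was added after seeing the data. For WT sex that fit called 1128 of all genes, against 860 with all mice. How many of all genes were called for genotype in males in these fits is not given here. The counts of 2 and 3 can therefore not be read as particular to the UGTs.

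*Ugt2b1* stood at 509, 802, 487 and 583 CPM in the MKO mice, where MKO 2 was again the highest. With all mice the log2 difference from MWT mice was -0.55 (SE 0.20, edgeR adjusted p = 0.252). *Ugt2b5* stood at 762, 832, 851 and 885 CPM, all below the MWT mice but near them, with a log2 difference of -0.30 (95% interval -0.72 to 0.11). *Ugt1a6b* stood at 72.2, 64.6, 78.9 and 76.5 CPM, over the range of the MWT mice, with a log2 difference of 0.02 (95% interval -0.25 to 0.30).

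The effect of genotype itself differed between the sexes for 3 of the 10 genes (interaction of sex and genotype), against 1.94% of all genes. All 3 were higher, meaning that the change from WT to ESR1KO was more positive in females than in males, as for 1.02% of all genes, and 0.923% were lower. *Ugt2b38* differed by 4.17 in log2 (SE 0.65, edgeR adjusted p = 0.00137), *Ugt2b1* by 1.53 (SE 0.29, edgeR adjusted p = 0.00726) and *Ugt2b5* by 1.17 (SE 0.27, edgeR adjusted p = 0.0333). With a minimum of 1.5, *Ugt2b38* and *Ugt2b1* remained, against 1.09% of all genes. *Ugt2b5* was not called when any of 9 of the 15 mice was left out, and its adjusted p lay between 0.00126 and, without MWT 1, 0.115 over all alternatives, whereas *Ugt2b38* and *Ugt2b1* stayed called. The count was again 3 without both FKO 1 and MKO 2. For *Ugt2b37* the interaction was -1.86 (SE 0.75, edgeR adjusted p = 0.273). The median interaction was 0.39 over the 10 genes and -0.01 over all genes. The same contrast is the sex difference in ESR1KO mice minus that in WT mice. *Ugt2b38*, *Ugt2b1* and *Ugt2b5* were also called between WT sexes, so these results use the same values and are not independent.

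Between ESR1KO females and males, 0 of the 10 genes were called by edgeR and 0 by DESeq2, against 0.272% of all genes. At an unadjusted p under 0.05 there were 4, against 17.5% of all genes. The median of log2(FKO/MKO) was 0.29 over the 10 genes and 0.01 over all genes. For *Ugt2b38* the log2 difference was 0.26 (95% interval -0.56 to 1.07) and for *Ugt2b37* 0.28 (-0.76 to 1.31). Without both FKO 1 and MKO 2 they were 0.89 (edgeR adjusted p = 0.0827) and 1.51 (edgeR adjusted p = 0.101), and over all alternatives the adjusted p lay between 0.0726 and 0.991 for *Ugt2b38* and 0.0662 and 0.998 for *Ugt2b37*. These intervals do not show that the sexes were alike, but that of *Ugt2b38* does not reach the WT difference of -3.91. For *Ugt2b1* the log2 difference was 0.35 (-0.03 to 0.74), for *Ugt2b5* 0.40 (0.03 to 0.77) and for *Ugt1a6b* -0.29 (-0.54 to -0.05). The edgeR count was 0 whichever mouse was left out, and without both FKO 1 and MKO 2.

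**Figure D3:**
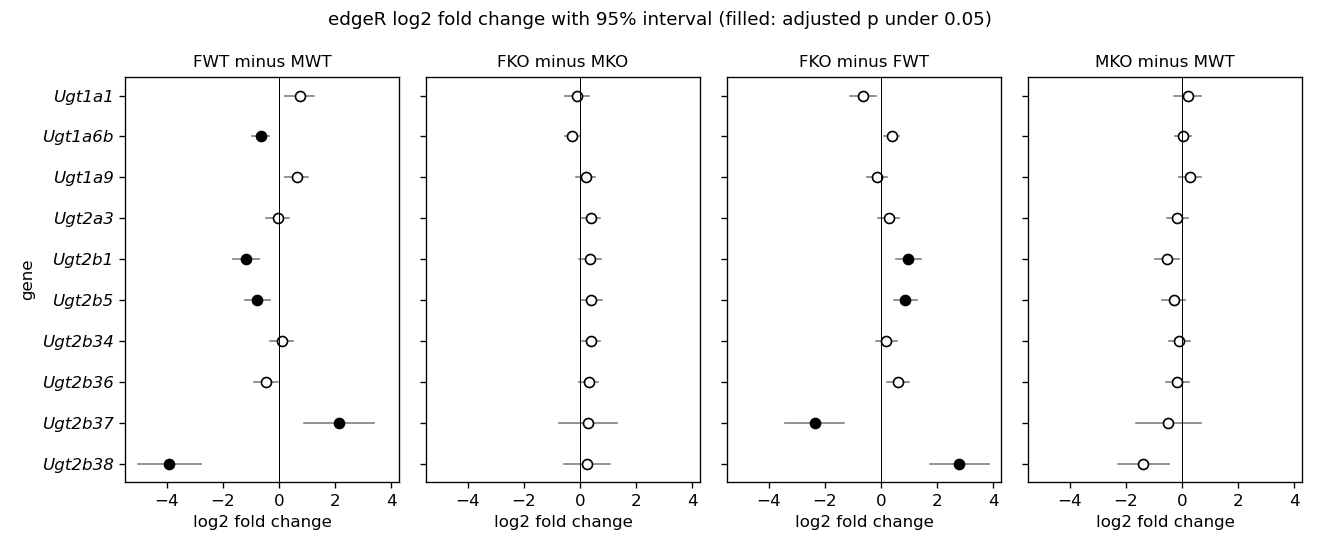
Log2 fold change of each of the 10 genes with its 95% interval (edgeR) in 4 comparisons, filled where the adjusted p was under 0.05. *Ugt2b37* and *Ugt2b38* lie far to opposite sides in the WT sex comparison and, with signs exchanged, between FKO and FWT mice, which are comparisons that have the FWT mice in common.

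*Ugt2b37* and *Ugt2b38*, whose transcripts and promoters are near copies, could be set against each other within each mouse, where the depth of the library cancels. The ratio of *Ugt2b38* to *Ugt2b37* counts was 0.0721, 0.248 and 0.121 in the FWT mice and 9.33, 7.06 and 7.60 in the MWT mice. It was 6.76, 3.72, 4.75, 2.63 and 4.12 in the FKO mice and 5.22, 3.69, 4.72 and 6.54 in the MKO mice. *Ugt2b37* thus gave most of the pair's counts in all 3 FWT mice and *Ugt2b38* in all 12 other mice.

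The summed level of the pair followed another order. It lay between 13.7 and 31.4 CPM in FWT, 38.8 and 50.3 CPM in MWT, 15.5 and 32.8 CPM in FKO mice, and at 13.3, 45.4, 8.57 and 8.72 CPM in MKO 1 to MKO 4. MKO 2 thus had a summed level like that of the MWT mice and a ratio, 3.69, inside the range of the other ESR1KO mice.

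**Figure D4:**
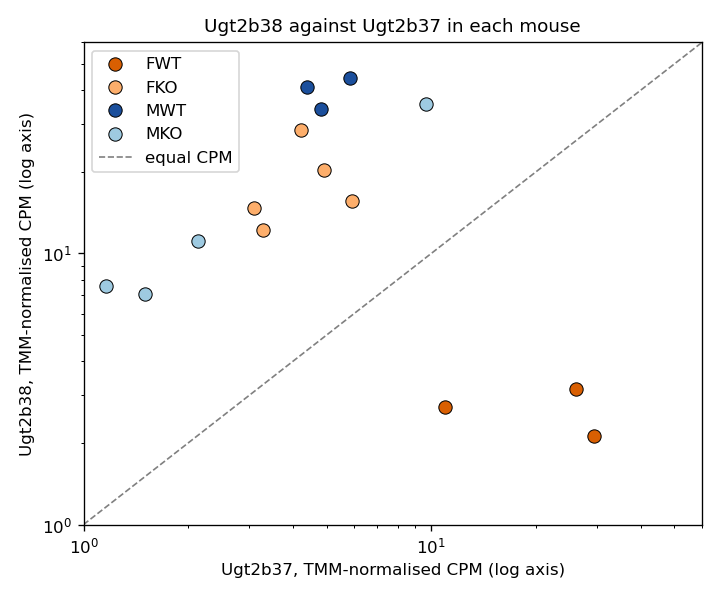
*Ugt2b38* against *Ugt2b37* in each of the 15 mice (TMM-normalised CPM, both axes log, dashed line for equal CPM). The 3 FWT mice lie below the line and the 12 others above it, with MKO 2 near the MWT mice on the vertical axis.

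The remaining 4 genes were called in no comparison by the edgeR fit over all mice, and *Ugt2a3* and *Ugt2b34* in no alternative either. *Ugt1a9*, whose enzyme acts on bulkier phenols and drugs, ranged from 56.9 to 63.1 CPM in FWT, 35.5 to 40.4 in MWT, 38.5 to 70.8 in FKO and 37.2 to 57.6 in MKO mice. WT females were above WT males, as for *Ugt1a1*, with log2 differences of 0.63 (SE 0.19, edgeR adjusted p = 0.0767) and 0.75 (SE 0.24, edgeR adjusted p = 0.102), opposite in sign to that of *Ugt1a6b* from the same locus. DESeq2 called both (adjusted p = 0.0416 and 0.0453), as did edgeR on the groups compared alone (adjusted p = 0.00312 and 0.00159). Over all alternatives the adjusted p lay between 0.00312 and 0.253 for *Ugt1a9* and between 0.00159 and 0.247 for *Ugt1a1*. *Ugt1a1* ranged from 253 to 283 CPM in MWT and from 259 to 346 CPM in MKO mice.

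*Ugt2b36* had higher values in WT males than WT females, as *Ugt2b5* had, without a call by edgeR. It ranged from 432 to 538 CPM in FWT, 617 to 796 in MWT, 530.2 to 1104 in FKO and 575 to 642 in MKO mice, and the edgeR adjusted p was 0.238 for WT sex and 0.0693 for genotype in females. DESeq2 called the latter (adjusted p = 0.0191), and over all alternatives its adjusted p lay between 0.0191 and 0.223. Across the 15 mice its log2 CPM followed that of *Ugt2b5* with a Pearson r of 0.97, a description over mice that have groups and libraries in common.

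*Ugt2a3*, from the subfamily beside *Ugt2b*, and *Ugt2b34* had the narrowest spread of group means, 1.302-fold and 1.314-fold from lowest to highest. *Ugt2a3* ranged from 339.6 to 398 CPM in FWT and from 344 to 403 CPM in MWT mice, with a log2 sex difference of -0.05 (95% interval -0.47 to 0.36). *Ugt2b34* ranged from 538 to 661 CPM in FWT and from 526 to 588 CPM in MWT mice, with a log2 sex difference of 0.10 (95% interval -0.30 to 0.50). In ESR1KO mice *Ugt2a3* ranged from 325 to 641 CPM in females and 312 to 396 CPM in males, and *Ugt2b34* from 548 to 900.1 CPM in females and 443 to 641 CPM in males. The highest FKO mouse was FKO 1 for both.

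The 10 genes together took 2849 to 3301 CPM in FWT, 3522 to 4387 in MWT, 3218 to 5688 in FKO and 3115 to 3666 in MKO mice, with FKO 1 at the top. The 3 *Ugt1a* genes alone took 546 to 576 CPM in FWT and 357 to 396 CPM in MWT mice, an order opposite to that of the total. They took 269.7 to 539.96 CPM in FKO mice and 371 to 480.5 CPM in MKO mice, which overlap.

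Because reads may have been divided among copies, the counts were also summed. The sum of *Ugt2b5*, *Ugt2b36*, *Ugt2b37* and *Ugt2b38* differed between FKO and FWT mice by 0.74 in log2 (SE 0.19, edgeR adjusted p = 0.0341), and between FWT and MWT mice by -0.65 (SE 0.21, edgeR adjusted p = 0.0959), so the sex difference of the sum was not called. Nor was its interaction of 1.01 (SE 0.27, edgeR adjusted p = 0.0765). *Ugt2b37* and *Ugt2b38* together averaged 24.8 CPM in FWT and 44.8 CPM in MWT mice, against 601 and 1027 CPM of *Ugt2b5*. The sum therefore says little about that pair. The sum of all 9 *Ugt1a* genes differed between FWT and MWT mice by 0.65 in log2 (SE 0.18, edgeR adjusted p = 0.0509) and between FKO and FWT mice by -0.48 (SE 0.16, edgeR adjusted p = 0.0881). The sum had the sign of *Ugt1a1* and *Ugt1a9*, not that of *Ugt1a6b*. *Ugt1a1* averaged 452 CPM in FWT mice, against 45.9 CPM of *Ugt1a6b*, so this sum says little about *Ugt1a6b*.

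Of 12 further UGT genes, 10 were tested, and *Ugt2a1* and *Ugt2a2* had a count of 0 in all 15 mice. Between WT sexes 2 were higher in females and 1 lower. *Ugt1a5* averaged 81.9 CPM ± 11.7 (SD, n = 3) in FWT and 23.7 ± 3.005 (SD, n = 3) in MWT mice, a log2 difference of 1.79 (SE 0.28, edgeR adjusted p = 0.000664). It was the one UGT gene called between MKO and MWT mice, and rose to 65.1 CPM ± 5.09 (SD, n = 4), by 1.46 in log2 (SE 0.27, edgeR adjusted p = 0.00899), and its interaction was -2.20 (SE 0.36, edgeR adjusted p = 0.00202). *Ugt1a10* was higher in FWT than MWT mice by 1.31 (SE 0.30, edgeR adjusted p = 0.0152) and fell in FKO mice by 0.98 (SE 0.26, edgeR adjusted p = 0.0353), with levels of at most 5.19 CPM. *Ugt2b35*, which lies inside the *Ugt2b* cluster but on the plus strand, had the same signs as *Ugt2b1*. It was lower in FWT than MWT mice (log2 difference -1.10, SE 0.18, edgeR adjusted p = 0.000890), rose in FKO mice by 0.82 (SE 0.16, edgeR adjusted p = 0.00711) and had an interaction of 1.27 (SE 0.23, edgeR adjusted p = 0.00553). The medians over these 10 genes were 0.39 for WT sex and -0.21 for genotype in females.

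Of 5 genes that make, carry or use up UDP-glucuronic acid, 1 was called by edgeR. *Ugdh*, whose enzyme oxidises UDP-glucose to UDP-glucuronic acid, averaged 87.8 CPM ± 3.93 (SD, n = 3) in FWT and 172 ± 24.4 (SD, n = 3) in MWT mice, a log2 difference of -0.97 (SE 0.12, edgeR adjusted p = 4.33e-05). It rose in FKO mice to 158 CPM ± 13.97 (SD, n = 5), by 0.85 in log2 (SE 0.11, edgeR adjusted p = 0.000116). The interaction was 0.55 (SE 0.15, edgeR adjusted p = 0.0822) and was not called. The medians over the 5 genes were -0.32 for WT sex and 0.36 for genotype in females.

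Of 9 transporters of glucuronides and other organic anions, 1 was higher and 2 were lower in FWT than MWT mice, and 2 rose in FKO mice. *Abcg2*, an efflux pump of the canalicular membrane, was lower in FWT than MWT mice (log2 difference -1.75, SE 0.16, edgeR adjusted p = 1.73e-06) and rose in FKO mice by 1.53 (SE 0.15, edgeR adjusted p = 6.80e-06). *Slco1a1*, an uptake transporter of the sinusoidal membrane, was lower in FWT mice (log2 difference -1.37, SE 0.26, edgeR adjusted p = 0.00339) and rose in FKO mice by 1.46 (SE 0.24, edgeR adjusted p = 0.00156). *Slco1a4*, its neighbour in function, was higher in FWT mice by 1.74 (SE 0.38, edgeR adjusted p = 0.0105). In males none of the 9 was called for genotype by edgeR. The medians over the 9 genes were 0.15 for WT sex and -0.02 for genotype in females.

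Of 10 nuclear receptors and other factors known to act on UGT genes, 1 was called in WT mice. *Nr1i3*, the constitutive androstane receptor, averaged 372 CPM ± 60.3 (SD, n = 3) in FWT and 193 ± 43.4 (SD, n = 3) in MWT mice, a log2 difference of 0.95 (SE 0.23, edgeR adjusted p = 0.0202). It averaged 256 CPM ± 77.3 (SD, n = 5) in FKO and 225 ± 25.9 (SD, n = 4) in MKO mice, and no genotype effect was called. None of 4 genes of bilirubin formation and none of 2 genes of glucuronide cleavage was called by edgeR in any comparison.

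The 2 genes outside the family whose log2 CPM was most like that of each called UGT over the 15 mice were found by Pearson r. The groups themselves carry much of such likeness. They were *Sult2a8*, a bile acid sulfotransferase (r = 0.97), and *Akr1c12* (0.95) for *Ugt2b5*, *Zfp809* (0.96) and *Riok3* (0.95) for *Ugt2b1*, and *Adh6-ps1* (0.95) and *Gm45792* (0.95) for *Ugt2b38*. They were *Slc2a5*, the fructose transporter (0.96), and *Abcb10* (0.93) for *Ugt1a6b*, and *Avpr1a*, a vasopressin receptor (0.88), and *Pid1* (0.86) for *Ugt2b37*. Among the UGTs themselves, *Ugt2b1* and *Ugt2b38* had an r of 0.91 and *Ugt2a3* and *Ugt2b34* one of 0.90.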

How the data were processed

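RNA-seq libraries depleted of ribosomal RNA were made from the livers of 15 mice and sequenced as paired-end reads. The submitters' processing notes name Trimmomatic 0.36, STAR, HTSeq 0.6.0 and GRCm38, while the paper gives another HTSeq release. The deposited values are raw counts per Ensembl gene, made by the authors without normalization. The annotation release, strand setting and handling of multiply assigned reads are not given in the sources used here.

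Tests used edgeR 4.0.16 in R 4.3.3. Genes were kept by filterByExpr, scaled by TMM and fitted with 1 mean per group over all 15 mice, and p-values were adjusted by Benjamini-Hochberg over 17655 genes. Mice were grouped by the labelled sex and genotype, and no pair of replicates agreed within sampling noise (chi-square per gene of at least 24.7). All 10 UGTs are named, with each mouse's value for those called. From fixed lists of related genes, at most 3 called genes are named, and *Ugt1a6a* for its likeness to *Ugt1a6b*. The UGTs and lists were chosen with earlier results of these data known. Log2 CPM used a prior count of 2. Gene positions and exon lengths come from GENCODE (GRCm38). Alternatives were DESeq2 1.42.0, other scalings and filters, a minimum log2 fold change, only the groups compared, a replicate block, summed copies and each mouse left out. Sequences were compared by global alignment in Biopython 1.88.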

Additional observations from a re-analysis of the deposited data

Results flagged for a closer look

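In MKO mice, the value of MKO 2 stood far from those of the other 3 for *Ugt2b37* and *Ugt2b38*. The gap between MKO 2, at 9.68 CPM of *Ugt2b37*, and the next mouse took 0.886 of the range of the group, and for *Ugt2b38*, at 35.7 CPM, the gap took 0.858 of the range. Of 20 combinations of group and gene examined, these were the 2 past Dixon's 95% limit, which chance passes in about 1 of 20. Both genes come from the same mouse, so they are not separate observations. Without MKO 2 both were called lower in MKO than MWT mice, as the values in males show.

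The change from WT to ESR1KO differed between females and males for 3 genes, by the interaction test of edgeR. The difference, females minus males in log2, was 4.17 for *Ugt2b38* (adjusted p = 0.00137), 1.53 for *Ugt2b1* (adjusted p = 0.00726) and 1.17 for *Ugt2b5* (adjusted p = 0.0333). In females the log2 changes of these genes were 2.79, 0.97 and 0.87, all called. In males they were -1.38, -0.55 and -0.30, none called with all mice, so both sexes enter the difference. The test uses the same WT mice as the comparison of WT sexes, in which these genes were also called, and is not independent of it.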

How the results depend on the processing

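The number of UGTs called changed by over 1.5 times in 3 comparisons. With a minimum log2 fold change of 1.5 it was 2 for WT sex and 2 for genotype in females. For genotype in males it was 1 with no filter on low counts (*Ugt2b38*, adjusted p = 0.00975) and 3 with FKO 1 and MKO 2 both left out, an alternative chosen after seeing the data. Leaving out each mouse in turn gave 2 to 6 for WT sex, 1 to 5 for genotype in females and 0 to 2 for genotype in males, 0 throughout for ESR1KO sex and 2 to 3 for the interaction. Each such fit kept at least 2 mice per group. Calls over all genes also moved with the setting, as given above for WT sex. Those of the other comparisons are not given here, so these ranges cannot be read as particular to the UGTs. In these alternatives no called gene changed direction, but the call was lost in 12 of 117 results under the other settings and in 36 of 180 with a mouse left out. Fits with the replicate number as a block used the mice numbered 1 to 3 and called 5, 0, 5, 0 and 2 genes for WT sex, ESR1KO sex, genotype in females, genotype in males and the interaction. For WT sex the 5 included *Ugt1a1* and *Ugt1a9* in place of *Ugt2b5* and *Ugt2b37*. Deviations of mice with the same number had correlations from -0.19 to 0.14, with 1 of 18 pairs over 0.1. Mice with different numbers were not compared in this way, so these values cannot settle whether the numbers pair the mice. Changes of sign concerned genes that were not called. *Ugt2b37* in ESR1KO sex (0.28) was -0.26 with the block, -0.36 in the same mice without it, and -0.046 to 1.49 with a mouse left out. *Ugt1a6b* for genotype in males (0.02) was -0.0074 with no filter, -0.010 with the block, -0.0027 in the same mice without it, and -0.041 to 0.081 with a mouse left out. *Ugt2a3* in WT sex was -0.12 to 0.0016 and *Ugt1a1* in ESR1KO sex -0.27 to 0.034 with a mouse left out. The causes were not tested. Depth limits *Ugt2b37* and *Ugt2b38* most, with 59 counts as the lowest of *Ugt2b37*.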
